A study of Rattus norvegicus with 12 samples.

Results

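Described here are 53 rat genes of the dividing cell, 26 that act in DNA replication and 27 that act in mitosis, in cultures of neural stem cells (NSCs). The genes were chosen by name, and every probe set whose single gene symbol is on that list was taken. A probe set is a handful of short DNA probes that read the 3' end of a transcript. The list had 73 probe sets among 31099 on the array, and 68 of them passed the filter on dim signals. All 53 genes had at least 1 tested probe set, and where a gene had several, the brightest over all arrays was used.

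RNA was measured on 12 Affymetrix Rat230_2 arrays. The cultures came from the brain or the spinal cord of Sprague Dawley rats aged 3 to 5 days, in a proliferative or a differentiated state, with 3 arrays in each of the 4 groups. The means and the length of differentiation are not given in the sources used here. Whether arrays of a group stand for separate animals or cultures is not stated either, so each p-value speaks only of how much these arrays vary, and that variation may be technical. Signals are on a log2 scale, and group means are given ± SD with n = 3. Changes are log2 differences with the standard error of a linear model fitted across all probe sets with limma. A gene is said to rise, fall or differ where its Benjamini-Hochberg adjusted p over all tested probe sets was under 0.05. In bulk RNA, fewer cells in a phase and less RNA per cell in that phase cannot be told apart.

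A dividing cell copies its DNA in S phase and separates the copies in mitosis, with gap phases before each. S phase genes are switched on around the G1 to S boundary, in large part by E2F factors that the retinoblastoma family of pocket proteins holds back. Many mitosis genes are transcribed later, in G2, through the cell cycle homology region (CHR) and CCAAT boxes of their promoters, which the MuvB complex and NF-Y bind. Both groups are usually read together as a sign of proliferation, and both are low in cells that have left the cycle.

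The promoters of both groups are shown because they differ in letters that the choice of genes did not use. Of the 250 bases upstream of the start in RefSeq's GRCr8 annotation, 23 of 26 replication and 23 of 27 mitosis genes had a sequence in the table. Matches on either strand were sought for the E2F words TTTGGCGC, TTTCGCGC, TTTCCCGC, TTTGGCGG and TTTCCCGG, for the CHR words TTTGAA and TTTAAA, and for CCAAT, with overlapping matches of a kind counted as 1. Mcm4, Ccne2, E2f1, Ccna2, Aurkb, Ube2c and Pbk were not among the matched genes. An E2F word lay upstream of 11 replication genes (47.8%) and 2 mitosis genes (8.7%), against 5.1% of 9349 promoters of genes tested on the arrays and 3.1% of all 27457. A CHR word lay upstream of 3 replication genes (13.0%) and 18 mitosis genes (78.3%), against 16.6% and 25.3%. A CCAAT word was present in 52.2% of replication and 78.3% of mitosis promoters, against 35.7% and 34.3%. A CHR word together with CCAAT was found in 16 mitosis promoters (69.6%) and 0 replication promoters, against 6.0% and 8.9%. A match is a run of letters and not a measured binding site.

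The next 8 stretches are the last 150 bases before the start on the gene's strand, 5' to 3', chosen after the values were seen to stand for the members that changed most or are described most. In the first 4, which belong to replication genes, capitals mark E2F words. In the last 4, which belong to mitosis genes, capitals mark CHR words and CCAAT (read as ATTGG where it lies on the other strand).
Hells, chr1:246113979-246114128, plus strand: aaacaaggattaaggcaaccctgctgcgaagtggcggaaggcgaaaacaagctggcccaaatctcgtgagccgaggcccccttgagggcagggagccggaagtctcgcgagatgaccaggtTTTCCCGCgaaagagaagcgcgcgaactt
Mcm6, chr13:42404353-42404502, minus strand: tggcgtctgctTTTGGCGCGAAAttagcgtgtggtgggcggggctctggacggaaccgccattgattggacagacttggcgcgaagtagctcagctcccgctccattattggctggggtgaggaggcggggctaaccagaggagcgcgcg
Mcm2, chr4:122918095-122918244, minus strand: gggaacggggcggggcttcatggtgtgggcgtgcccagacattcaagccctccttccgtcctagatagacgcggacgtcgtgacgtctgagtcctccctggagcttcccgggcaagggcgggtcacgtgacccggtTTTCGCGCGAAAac
Tyms, chr9:120776084-120776233, minus strand: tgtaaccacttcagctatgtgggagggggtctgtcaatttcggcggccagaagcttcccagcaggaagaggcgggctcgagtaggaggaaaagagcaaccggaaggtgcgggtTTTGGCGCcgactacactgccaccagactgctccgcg
Ccnb2, chr8:79981659-79981808, minus strand: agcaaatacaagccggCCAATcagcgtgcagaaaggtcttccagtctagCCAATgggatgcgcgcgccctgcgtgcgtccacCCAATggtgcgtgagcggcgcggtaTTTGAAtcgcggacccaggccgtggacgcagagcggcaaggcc
Birc5, chr10:103571996-103572145, plus strand: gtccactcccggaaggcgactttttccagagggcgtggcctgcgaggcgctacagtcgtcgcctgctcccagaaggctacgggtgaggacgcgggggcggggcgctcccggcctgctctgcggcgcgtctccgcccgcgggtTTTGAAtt
Nusap1, chr3:127057145-127057294, plus strand: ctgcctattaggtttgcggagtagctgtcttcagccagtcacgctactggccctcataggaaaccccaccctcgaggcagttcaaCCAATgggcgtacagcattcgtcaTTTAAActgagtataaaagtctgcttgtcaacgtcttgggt
Kif11, chr1:244536717-244536866, plus strand: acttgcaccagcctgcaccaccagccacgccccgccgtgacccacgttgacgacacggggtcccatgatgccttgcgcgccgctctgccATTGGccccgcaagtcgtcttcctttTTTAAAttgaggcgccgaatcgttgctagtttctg
Counted from the start, the E2F word of Hells begins at base -29 and that of Tyms at -37, and Mcm2 and Mcm6 each hold a pair of E2F words that overlap on opposite strands. The CHR words of Ccnb2, Nusap1 and Kif11 begin at -43, -41 and -35, with the nearest CCAAT at -68, -65 and -61. That of Birc5 begins at -8, and its stretch has no CCAAT.

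Of the arrays, spinal cord proliferative replicate 1 stood apart. All 53 genes were higher on it than on both other arrays of its group, where 42.7% of the 11218 genes tested were, and its mean over the replication genes was 0.98 and over the mitosis genes 0.82 above the mean of the other 2 arrays. Results that use this group are therefore also given without it where that ended a call or moved a called value by over 1.5 times. The same holds where it turned the direction of a class mean or median. Values that were not called may turn direction without it, and not each of these is given. Array medians ran from 6.88 to 7.23. Of 8 NSC markers, 7 were on the array, and none was dim in any group. Dim means below the 40th percentile of the array (5.91 to 6.41) on all 3 arrays of a group, and no member was dim in any group. The NSC markers were not alike across groups. With differentiation 3 of the 7 rose and 2 fell in brain, and 1 rose and 4 fell in spinal cord. In spinal cord against brain, 0 were higher and 4 lower in proliferative cultures, with Nes at -1.65 and Pax6 at -2.49. In differentiated cultures 0 were higher and 5 lower. The part of this in the results was not tested.

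The balance between both groups of genes was measured on each array. The mean log2 signal of the 26 replication genes minus that of the 27 mitosis genes was 0.61, 0.87 and 0.03 on the proliferative brain arrays and -0.51, -0.50 and -0.45 on the differentiated ones. On the spinal cord arrays it was -0.31, -0.46 and -0.48 in the proliferative and -0.18, -0.20 and -0.16 in the differentiated state. Only the 3 proliferative brain arrays of the 12 had a higher mean for replication than for mitosis genes, and the difference is set by probe sets as well as by RNA level, so only its change between arrays can be read. The balance changed with differentiation by -0.99 in brain and by 0.23 in spinal cord, and in both tissues the groups did not overlap. Without spinal cord proliferative replicate 1 these differences were -0.99 and 0.29. The array that stood apart had both means raised, so its balance was only 0.15 above the mean of the other 2.

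The replication mean was 9.85 ± 0.12 in proliferative and 9.18 ± 0.05 in differentiated brain cultures, and 9.77 ± 0.57 and 9.57 ± 0.02 in spinal cord cultures, a change of -0.20 there that turned to 0.12 without proliferative replicate 1. The brain groups did not overlap and the spinal cord groups did. The mitosis mean was 9.34 ± 0.34 and 9.66 ± 0.05 in brain, and 10.19 ± 0.48 and 9.75 ± 0.01 in spinal cord, a change of -0.44 there and of -0.16 without proliferative replicate 1. Here the brain groups overlapped, since proliferative replicate 3 was at 9.69 and the lowest differentiated array at 9.62, and the spinal cord groups did not. Brain proliferative replicate 3 differed from the mean of the other 2 arrays of its group by 0.51 in mitosis genes and by -0.20 in replication genes, and without it the balance changed by -1.23 with differentiation.

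**Figure D1:**
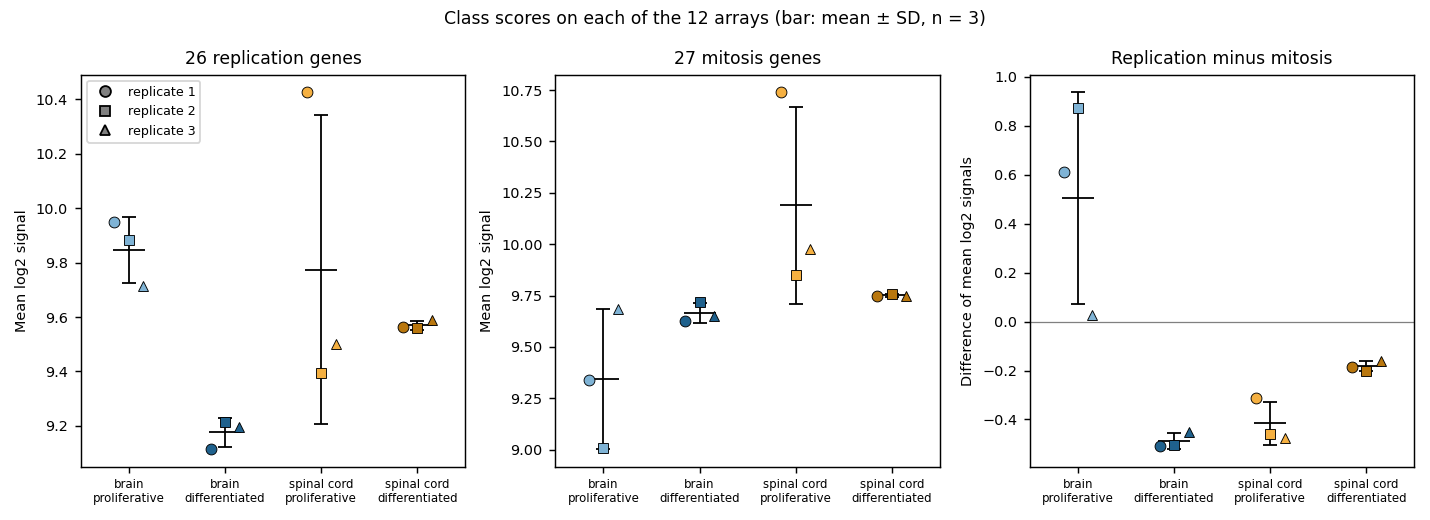
Mean log2 signal of the 26 replication genes (left), of the 27 mitosis genes (middle) and their difference (right) on each of the 12 arrays, with the mean ± SD of each group of 3. The difference is above 0 on the 3 proliferative brain arrays (0.03 to 0.87) and below 0 on the other 9, and spinal cord proliferative replicate 1 is high in both means but not in their difference.

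In differentiated brain cultures 15 of the 26 replication genes fell and 0 rose, where 28.5% of all tested genes fell and 24.1% rose. The median change of the replication genes was -0.74, against -0.06 over all tested genes, and 25 of the 26 values were below 0. By role, 5 of 6 MCM genes fell, 2 of 4 of the origin and helicase factors, 4 of 6 of the genes of the polymerase, clamp and its loader, 3 of 4 chromatin factors and 1 of 3 genes of nucleotide supply. Of the 3 genes for the cyclins E and E2F1, 0 passed the threshold. Without spinal cord proliferative replicate 1, 18 replication genes fell, with Mcm7, Pcna and Gins1 added, and 1, Tk1, rose. That array alters only the pooled spread here, and no share over all genes was taken for that fit.

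The MCM proteins 2 to 7 form the ring that becomes the replicative helicase. Mcm6 was at 11.55, 11.49 and 11.16 on the proliferative brain arrays and at 10.38, 10.21 and 10.26 on the differentiated ones. The groups were well apart, and Mcm6 fell 2.17-fold (log2 change -1.12 ± 0.24, adjusted p = 0.00182). Mcm2, Mcm3, Mcm4 and Mcm5 fell too, by 1.64- to 1.92-fold, with no overlap between the groups for any of them. Mcm7 was at -0.43 ± 0.23 (adjusted p = 0.142). The calls of Mcm4 and Mcm5 were each lost in a single leave-out, Mcm4 without differentiated replicate 1 (adjusted p = 0.057) and Mcm5 without proliferative replicate 1 (0.0549).

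Among the genes that load and fire origins, Cdt1, which brings the MCM ring to the origin, was at 10.50, 10.36 and 9.91 before and 8.71, 9.00 and 9.08 after differentiation. All differentiated arrays lay below all proliferative ones, a fall of 2.51-fold (-1.33 ± 0.23, adjusted p = 0.000345). Cdc45, a part of the active helicase with the GINS complex, fell 1.70-fold (adjusted p = 0.0232), a call lost when its probe sets were averaged (adjusted p = 0.195) and without proliferative replicate 1 or 2 or differentiated replicate 2 or 3 (0.0681 to 0.0812). Gins1, a GINS subunit, was at -0.71 ± 0.28 (adjusted p = 0.0519). Mcm10, which helps the helicase to start, was at -0.17 ± 0.23 (adjusted p = 0.577), with overlapping groups.

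At the fork, Rfc3 and Rfc4, subunits of the complex that loads the sliding clamp, fell 1.87- and 2.17-fold. Rfc4 went from 10.64, 10.45 and 10.54 to 9.41, 9.59 and 9.27 (adjusted p = 0.000161), again without overlap. Pola1 and Prim1, which carry the polymerase and primase activity that starts new strands, fell 1.83- and 1.75-fold (adjusted p = 0.00256 and 0.0062). Pcna, the clamp itself, had values of 13.31, 13.24 and 13.18 and 12.95, 12.80 and 12.86 that did not overlap but missed the threshold (-0.38 ± 0.15, adjusted p = 0.055). Fen1, the nuclease that trims Okazaki fragments, was at -0.21 ± 0.21 (adjusted p = 0.427).

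The largest fall of the 53 genes in brain was that of Hells, a chromatin remodelling helicase linked to DNA methylation. Its signals were 9.87, 10.01 and 9.34 on the proliferative arrays and 7.60, 8.57 and 8.51 on the differentiated ones, so differentiated replicate 1 was far below the other 2 and still the groups did not overlap. Hells fell 2.84-fold (-1.51 ± 0.34, adjusted p = 0.0027). Slbp, which binds the stem loop of histone messages, fell 2.32-fold (adjusted p = 0.00399), with differentiated values of 7.95, 9.22 and 8.77 that were the most spread of the replication genes. Uhrf1, which brings the maintenance methyltransferase to copied DNA, fell 1.79-fold (adjusted p = 0.0108). Chaf1b, a histone chaperone subunit, was at -0.39 ± 0.26 (adjusted p = 0.25).

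The genes of nucleotide supply did not move as a group. Tyms, thymidylate synthase, went from 8.54, 8.03 and 8.55 to 7.47, 7.71 and 7.87 and fell 1.62-fold (adjusted p = 0.0211). That call was lost without proliferative replicate 1, without proliferative replicate 3 and without differentiated replicate 1, where the adjusted p was highest at 0.0815. Rrm1, the large subunit of ribonucleotide reductase, was at -0.06 ± 0.17 (adjusted p = 0.782). Tk1, thymidine kinase, had the only value above 0 among the 26, at 0.49 ± 0.29 (adjusted p = 0.18). A dimmer Tk1 probe set was called higher in brain, at 1.09 (adjusted p = 0.035). It was also called higher in proliferative spinal cord than in proliferative brain cultures, at 1.57 (0.00632). Its response in spinal cord minus that in brain was -1.68 (0.0265). Ccne1 and Ccne2, the cyclins E that drive entry into S phase, were at -0.32 ± 0.20 and -0.33 ± 0.30, and E2f1 at -0.41 ± 0.28, with adjusted p of 0.22, 0.397 and 0.248.

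In the same brain comparison 8 of the 27 mitosis genes rose and 0 fell. Their median change was 0.36, and 21 of 27 values were above 0. The genes that rose were Ccnb1 and Ccnb2, Birc5 and Cenpf, Kif11, Nusap1 and Prc1, and Cdca3. The count of rises is close to what 24.1% of 27 genes would give, and 0 of the 27 fell where 28.5% of all tested genes did. The count fell to 2 without brain proliferative replicate 2, the array lowest in mitosis genes, and to 4 when arrays were centred on their medians, where 2042 of the 11218 tested genes rose. Without spinal cord proliferative replicate 1 it was 12, with Mki67, Top2a, Nuf2 and Hmmr added, and 1 gene, Kif23, fell. That array enters the brain comparison only through the pooled spread, so the changes themselves were the same. No share over all genes was taken for that fit.

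Cyclin B partners Cdk1 to start mitosis. Ccnb2 was at 9.32, 8.82 and 10.03 on proliferative and at 10.82, 10.79 and 10.70 on differentiated brain arrays, with all differentiated arrays higher and much closer together. It rose 2.61-fold (1.38 ± 0.24, adjusted p = 0.000384). Ccnb1 rose 1.60-fold at the edge of the threshold (adjusted p = 0.0441), and this call was lost in 13 of 20 alternative settings, with the highest adjusted p, 0.193, without proliferative replicate 2. Cdk1 itself was at 0.17 ± 0.19 (adjusted p = 0.475), and Ccna2, cyclin A2, which acts in both S phase and mitosis, at -0.14 ± 0.25 (adjusted p = 0.679).

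At the centromere, Birc5, or survivin, a subunit of the chromosomal passenger complex, had signals of 8.52, 7.93 and 8.64 before and 9.25, 9.39 and 9.30 after differentiation. The groups did not overlap, and Birc5 rose 1.93-fold (0.95 ± 0.23, adjusted p = 0.00437). Cenpf, a kinetochore protein, rose 1.90-fold (adjusted p = 0.0119), which became 0.0598 without proliferative replicate 2. Nuf2 and Cenpe, a kinetochore subunit and a kinetochore motor, were at 0.53 ± 0.23 and 0.36 ± 0.21 (adjusted p = 0.0755 and 0.18).

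Of the spindle proteins, Kif11, the motor that pushes the poles apart, was at 8.73, 8.52 and 9.13 and 9.39, 9.52 and 9.49 and rose 1.60-fold (adjusted p = 0.0129). Nusap1 and Prc1, which bundle spindle microtubules, rose 1.84- and 1.52-fold (adjusted p = 0.0133 and 0.014). The calls of Kif11, Nusap1, Prc1 and Cdca3 were all lost without proliferative replicate 2, where the adjusted p was 0.0597, 0.0637, 0.0545 and 0.112. Prc1 was also lost without proliferative replicate 1 (0.0615), and Cdca3 without differentiated replicate 2 or 3 (0.0658 and 0.0757). Centring arrays on their medians took away the calls of Kif11, Prc1 and Cdca3. The Kif11 call was lost as well when its probe sets were averaged (0.0921). Its other probe set was at 0.34 in brain (adjusted p = 0.433) and was not called in any comparison. The brain calls of Ccnb2 and Birc5 were kept under all alternatives tried. Kif23, a midzone motor, was the lowest of the mitosis genes at -0.58 ± 0.29 (adjusted p = 0.12).

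Of the 8 kinases, 0 rose or fell in brain. The 8 were Aurka, Aurkb, Plk1, Bub1, Bub1b, Ttk, Pbk and Melk, and their changes ran from -0.33 for the checkpoint kinase Bub1 to 0.38 for Plk1. Mki67 and Top2a, a chromosome surface protein and the topoisomerase that untangles copied chromosomes, are often used to mark cycling cells. They were at 0.47 ± 0.20 and 0.47 ± 0.20 (adjusted p = 0.0737 and 0.0751). The other Top2a probe set was called higher, at 0.59 (adjusted p = 0.0358). Of the genes of mitotic protein destruction, Cdca3 rose 1.40-fold (adjusted p = 0.0235), and Ube2c and Cdc20 were at 0.19 ± 0.26 and -0.07 ± 0.25. The 5S rRNA control probe set also separated the brain states, with log2 signals of 9.50 to 11.02 before and 7.85 to 8.19 after differentiation, and its part in these results was not tested.

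**Figure D2:**
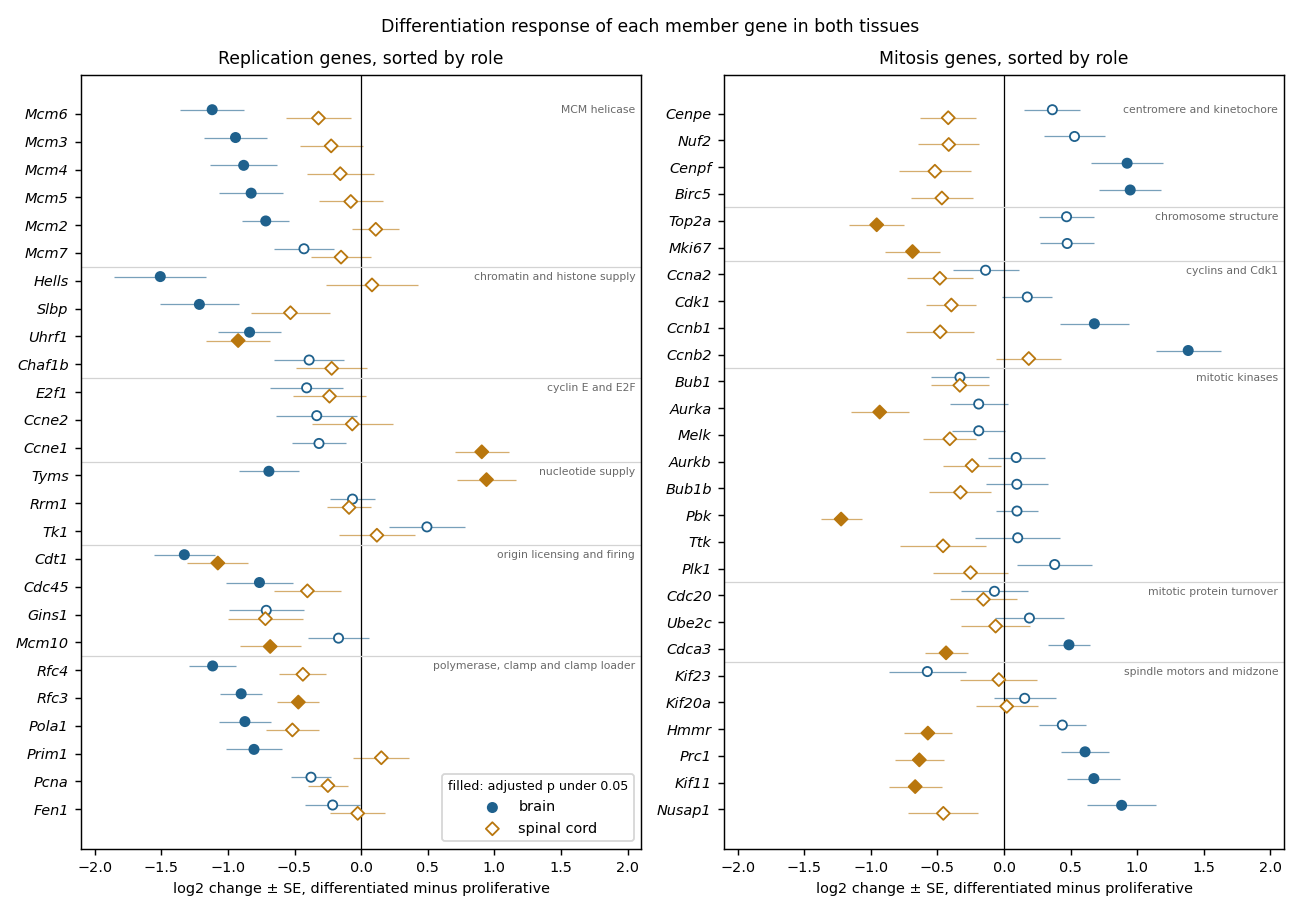
Log2 change with differentiation ± standard error of each member gene in brain (circles) and spinal cord (diamonds), replication genes left and mitosis genes right, grouped by role, filled where the adjusted p was under 0.05. In brain 15 replication genes lie at called values below 0 and 8 mitosis genes at called values above 0, and in spinal cord 8 mitosis genes lie at called values below 0.

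In differentiated spinal cord cultures, of the 26 replication genes 2 rose and 4 fell, where 20.9% of all tested genes rose and 22.6% fell, and their median was -0.22. Of the 27 mitosis genes 0 rose and 8 fell, with a median of -0.44 and 25 values below 0. The median over all tested genes was -0.04. Without proliferative replicate 1 the replication median turned to 0.11, with 5 rises and 2 falls, and the mitosis median was -0.16 with 6 falls. Of all tested genes 21.7% rose and 22.3% fell without that array.

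Tyms and Ccne1 rose in spinal cord. Tyms was at 8.64, 7.89 and 7.82 on proliferative and 9.18, 9.15 and 8.85 on differentiated arrays, so even the array that stood apart was below all differentiated ones. It rose 1.92-fold (0.94 ± 0.22, adjusted p = 0.00424). Ccne1 was at 9.49, 8.74 and 8.69 and 9.94, 9.81 and 9.88, again without overlap, and rose 1.87-fold (0.91 ± 0.20, adjusted p = 0.0027). Both calls were kept under all alternatives tried. Without proliferative replicate 1, Mcm2, Tk1 and Prim1 rose as well, by 1.28-, 1.51- and 1.41-fold.

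Cdt1 and Uhrf1 fell in spinal cord as they had in brain. Cdt1 was at 10.72, 9.70 and 9.84 on proliferative and 8.89, 9.16 and 8.98 on differentiated spinal cord arrays, with no overlap, and fell 2.11-fold (-1.08 ± 0.23, adjusted p = 0.00206). Uhrf1 fell 1.90-fold (adjusted p = 0.00727), and both falls were also called without proliferative replicate 1, at 1.69- and 1.46-fold. Rfc3 fell 1.39-fold (adjusted p = 0.0295) and Mcm10 1.60-fold (adjusted p = 0.0294), and neither was called without that array (0.108 and 0.0989). The 6 genes of the MCM ring had 0 calls in spinal cord. Mcm6, for example, was at 11.65, 10.34 and 10.60 and 10.59, 10.55 and 10.49, where the differentiated arrays lay within the range of the proliferative ones (-0.32 ± 0.24, adjusted p = 0.319). Without proliferative replicate 1 the change of Mcm6 was 0.07.

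Of the mitosis genes, Pbk, a mitotic kinase, changed most in spinal cord. It was at 10.98, 10.41 and 10.68 and then 9.34, 9.47 and 9.59, with all differentiated arrays far below, and fell 2.33-fold (-1.22 ± 0.15, adjusted p = 3.12e-05). Top2a and Aurka, the kinase of the spindle poles, fell 1.94- and 1.91-fold (adjusted p = 0.00207 and 0.00363). Mki67 went from 11.90, 10.99 and 11.04 to 10.50, 10.58 and 10.79 and fell 1.61-fold (adjusted p = 0.0162), a call lost without differentiated replicate 1 (adjusted p = 0.0608). Kif11 and Prc1 fell 1.59- and 1.55-fold (adjusted p = 0.016 and 0.013). Hmmr and Cdca3, a spindle protein and a mitotic trigger factor, fell 1.49- and 1.35-fold (adjusted p = 0.0202 and 0.0451), and neither was called without proliferative replicate 1, where the adjusted p was 0.0731 and 0.169. The Cdca3 call was lost in 12 of 20 alternative settings. Without that array the falls of Mki67, Kif11 and Prc1 were still called but smaller, at 1.31-, 1.32- and 1.31-fold (adjusted p = 0.0412, 0.049 and 0.0362). Ccnb2, which had risen most in brain, was at 11.27, 10.57 and 10.67 and 11.18, 10.98 and 10.90 in spinal cord, with overlapping groups (0.19 ± 0.24, adjusted p = 0.581).

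The difference between both responses, spinal cord minus brain, was tested as an interaction. At the threshold it was called above 0 for 6 of the 26 replication genes and below 0 for 0, where 23.7% of all tested genes were called higher and 21.2% lower. The count of replication genes above 0 was thus near the share of all genes. For the 27 mitosis genes the difference was called below 0 for 13 and above 0 for 0. By sign alone, 21 replication values were above 0 and 5 below, and 1 mitosis value was above 0 and 26 below. The medians were 0.36 and -0.78, and 0.05 over all tested genes. Without spinal cord proliferative replicate 1, 16 replication genes (median 0.69) and 13 mitosis genes (median -0.60) passed, against 26.2% and 23.2% of all genes in the respective direction.

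Among the replication genes, Tyms had the largest difference, since it fell in brain and rose in spinal cord (1.63 ± 0.32, adjusted p = 0.00104). Hells followed at 1.59 ± 0.49 (adjusted p = 0.0185), with a change of 0.08 ± 0.34 in spinal cord beside its fall in brain. Ccne1 was at 1.22 ± 0.28, Prim1 at 0.96 ± 0.30 and Mcm2 at 0.83 ± 0.25 (adjusted p = 0.0037, 0.0192 and 0.0173). Rfc4 passed at 0.68 ± 0.25 (adjusted p = 0.0431), and 12 of 20 alternatives took that call away. Without spinal cord proliferative replicate 1, Mcm3, Mcm4, Mcm5, Mcm6 and Mcm7 passed too, which gave the whole MCM ring. For Cdt1 and Uhrf1, which fell in both tissues, the difference was 0.25 ± 0.32 and -0.09 ± 0.34 (adjusted p = 0.573 and 0.866). Without that array it was 0.57 and 0.29 (adjusted p = 0.0581 and 0.226).

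Among the mitosis genes, Kif11, Prc1 and, with the unstable spinal cord call just given, Cdca3 rose in brain and fell in spinal cord, with differences of -1.34 ± 0.28, -1.24 ± 0.26 and -0.92 ± 0.23 (adjusted p = 0.00179, 0.00165 and 0.00536). Cenpf, Top2a and Birc5 had the largest differences, at -1.44 ± 0.38, -1.43 ± 0.29 and -1.41 ± 0.33 (adjusted p = 0.00785, 0.00143 and 0.00371). Pbk had the lowest adjusted p (-1.32 ± 0.22, 0.000317) and Mki67 was at -1.16 ± 0.29 (adjusted p = 0.00577). Of the kinases only Pbk passed. Ccnb1, Ccnb2, Nusap1, Nuf2 and Hmmr also passed, at -1.16, -1.20, -1.34, -0.94 and -1.01. Ccnb1, Ccnb2 and Nuf2 were lost when arrays were centred on their medians, where the adjusted p of Ccnb2 was 0.058. Ccnb1 and Nuf2 were also lost without brain proliferative replicate 2 (0.0522 and 0.0782). In all, the Nuf2 call was lost in 7 of 20 alternative settings, among them each leave-out of a differentiated brain array. That of Ccnb1 was lost in 4 of 20, with the highest adjusted p, 0.0701, when probe sets were averaged. Without spinal cord proliferative replicate 1 the difference of Nuf2 was -0.60 (adjusted p = 0.0265).

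**Figure D3:**
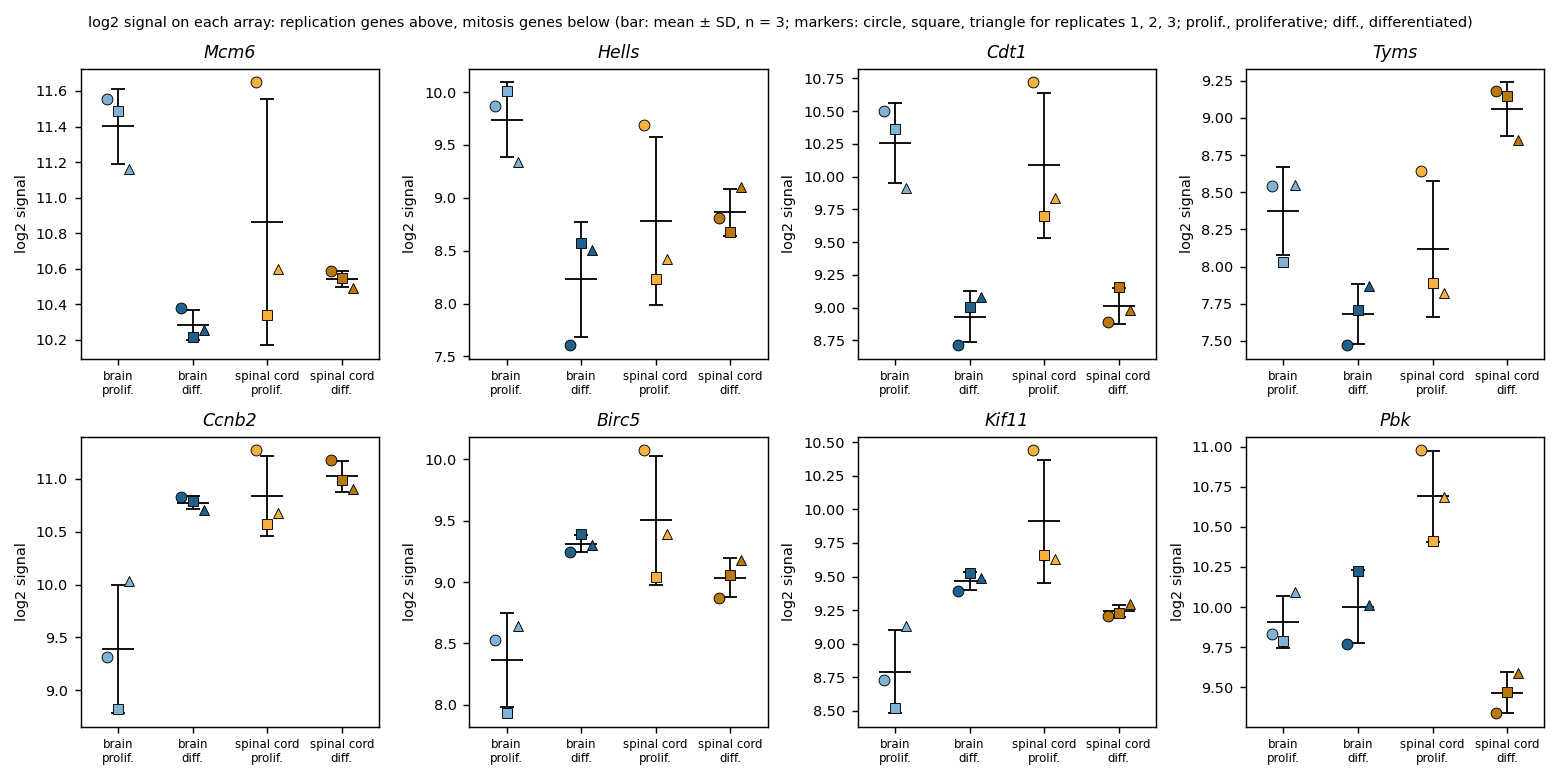
Log2 signal of 4 replication genes (above) and 4 mitosis genes (below) on each array, with the mean ± SD of each group of 3. Mcm6 and Hells are high on the 3 proliferative brain arrays and on spinal cord proliferative replicate 1, Tyms is highest on the differentiated spinal cord arrays, Ccnb2 is low on the proliferative brain arrays alone, and Pbk is lowest on the differentiated spinal cord arrays.

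Between tissues, the proliferative cultures differed in mitosis genes. Of the 27, 20 were higher in spinal cord and 0 lower, with a median difference of 0.78 and all 27 values above 0, where 21.2% of all tested genes were higher and 22.8% lower and the median was -0.04. Of the 26 replication genes 0 were higher and 1, Hells, was lower, with a median of -0.11. This comparison shares the proliferative arrays with the differentiation comparisons, so its values are given beside theirs and not as further evidence for them. The 5S rRNA signal also separated the proliferative tissues, at 9.50 to 11.02 in brain and 8.65 to 9.38 in spinal cord, and its part was not tested.

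Ccnb2 was 2.73-fold higher in proliferative spinal cord cultures, with all 3 arrays (11.27, 10.57 and 10.67) above the brain arrays given before (adjusted p = 0.00039). Cenpe was at 7.15, 6.96 and 7.43 on proliferative brain and 8.89, 8.53 and 8.26 on proliferative spinal cord arrays, without overlap and 2.60-fold higher in spinal cord (adjusted p = 0.000192). Top2a was 2.43-fold, Mki67 2.17-fold and Hmmr 2.12-fold higher (adjusted p = 0.00026, 0.000759 and 0.000338). Kif20a, a motor of cell division, was 2.26-fold higher (adjusted p = 0.00135). The 7 that did not pass were Ccna2, Aurkb, Plk1, Kif23, Ube2c, Cdc20 and Ttk. Another probe set of Cdc20 was called higher, at 0.65 (adjusted p = 0.014). Of the 20, 13 were kept under all alternatives tried, and centring arrays on their medians left 13 called, where 1705 of the 11218 tested genes were higher.

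The array that stood apart changed the calls of this comparison. Without spinal cord proliferative replicate 1, 16 mitosis genes were higher and 0 lower, with a median of 0.52. Those lost were Bub1, Bub1b, Aurka and Melk (adjusted p = 0.133, 0.113, 0.0804 and 0.125), and Cdk1 and Nuf2 were then 1.39- and 1.44-fold higher in place of 1.66- and 1.82-fold. In the same fit 14 replication genes were lower and 0 higher in spinal cord, with a median of -0.47. Of all tested genes 22.7% were higher and 25.4% lower without it. The 14 were Mcm2, Mcm3, Mcm5, Mcm6, Mcm7, Pcna, Cdc45, Cdt1, Gins1, Tyms, Prim1, Uhrf1, Rfc4 and Hells. Mcm6 was then 1.91-fold lower in spinal cord (adjusted p = 4.2e-05), against 1.45-fold with all arrays (adjusted p = 0.0963), and Hells 2.66-fold lower (adjusted p = 0.000937). With all arrays Hells was 1.94-fold lower (adjusted p = 0.0423), with overlapping groups, and 11 of 20 alternatives took the call away. The balance of replication over mitosis genes differed by -0.92 between proliferative spinal cord and proliferative brain cultures, and by -0.97 without that array.

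In differentiated cultures 4 replication genes were higher in spinal cord and 0 lower, where 22.3% of all tested genes were higher and 22.4% lower, and 23 of 26 values were above 0 with a median of 0.39. The median over all tested genes was -0.00. The 3' minus 5' log2 signal of Actb, a measure of RNA integrity, was 0.73 to 0.81 on these brain arrays and 0.99 to 1.01 on the spinal cord arrays, and its part was not tested. Ccne1 was at 8.48, 8.05 and 7.97 on brain and 9.94, 9.81 and 9.88 on spinal cord arrays, 3.27-fold higher in spinal cord with no overlap (adjusted p = 1.25e-05). Tyms was 2.59-fold higher (adjusted p = 0.000225), and Prim1 and Rfc3 were 1.55- and 1.55-fold higher (adjusted p = 0.026 and 0.00535). The Prim1 call was lost when any differentiated array was left out, with an adjusted p of up to 0.0678.

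Of the mitosis genes 3 were higher in differentiated spinal cord cultures and 1 lower, with a median of 0.07. Kif20a was 2.06-fold higher (adjusted p = 0.00258). Bub1 and Cenpe were 1.54- and 1.51-fold higher (adjusted p = 0.0339 and 0.0365), and each was lost in leave-outs, with adjusted p of up to 0.132 without brain differentiated replicate 1 and 0.171 without brain differentiated replicate 3. Pbk was 1.45-fold lower (adjusted p = 0.0129), which became 0.0685 without brain differentiated replicate 2. For Cdc20 and Kif23, another probe set than the brightest was called higher, at 0.92 and 0.95 (adjusted p = 0.00132 and 0.047). The fit without spinal cord proliferative replicate 1, whose pooled spread is smaller, called 13 replication genes higher, 5 mitosis genes higher and 1 lower, against 24.9% and 24.5% of all genes higher and lower. The means of the differentiated groups are the same in both fits.

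**Figure D4:**
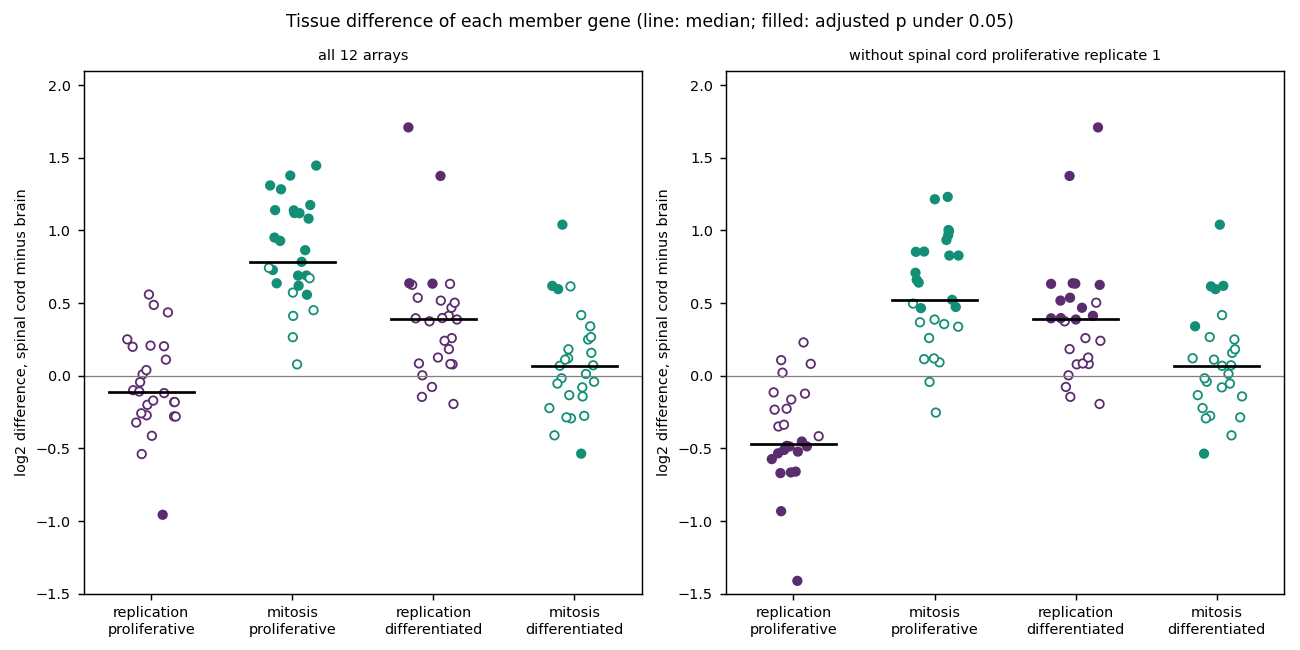
Log2 difference between tissues, spinal cord minus brain, of each replication and mitosis gene in both states, with all 12 arrays (left) and without spinal cord proliferative replicate 1 (right), filled where the adjusted p was under 0.05. The replication median in proliferative cultures moves from -0.11 to -0.47 when that array is left out, and the mitosis median from 0.78 to 0.52.

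Other genes of the same processes were taken by function, with earlier results of these data known. Of 36 other replication genes tested, 20 fell and 0 rose in differentiated brain cultures (median -0.60), beside 28.5% of all tested genes that fell and 24.1% that rose. In spinal cord 9 fell and 0 rose (median -0.21), beside 22.6% and 20.9%, so the share that fell was near that of all genes. Without spinal cord proliferative replicate 1, 8 fell and 4 rose there (median 0.00). Orc1, the largest subunit of the origin recognition complex, fell 3.97-fold in brain (adjusted p = 0.00313), and Dscc1, a clamp loader subunit for sister chromatid cohesion, 2.93-fold (adjusted p = 0.00444). In spinal cord the regulatory primase subunit Prim2 fell 2.34-fold (adjusted p = 0.000246). The difference of responses was called above 0 for 10 and below 0 for 2 of the 36, beside 23.7% and 21.2% of all genes, so the count above 0 was near that share. Without spinal cord proliferative replicate 1 the counts were 20 and 2, beside 26.2% and 23.2%. With all arrays Orc1 was at 1.83 and Dscc1 at 1.63 (adjusted p = 0.039 and 0.0273) and Prim2 at -1.05 (adjusted p = 0.00862).

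Of 48 other mitosis genes tested, 6 rose and 5 fell in differentiated brain cultures (median 0.01), both below the shares of 24.1% and 28.5% over all genes. In spinal cord 0 rose and 17 fell (median -0.47), beside 20.9% and 22.6%, and without proliferative replicate 1, 3 rose and 9 fell (median -0.23). In proliferative cultures 25 were higher and 1 lower in spinal cord than in brain (median 0.64), beside 21.2% and 22.8%, and 18 were higher and 4 lower without that array (median 0.34). In brain the citron kinase gene Cit rose 2.51-fold and securin, Pttg1, 2.07-fold (adjusted p = 0.000185 and 5.33e-05), while Ncapg2, a condensin subunit, fell 2.56-fold and Cenpn, a centromere protein, 2.18-fold (adjusted p = 0.00265 and 0.000628). In spinal cord the kinesin Kif18a fell 5.09-fold (adjusted p = 4.9e-05). The 27 mitosis members had 0 falls in brain, and this longer list had 5. The difference of responses was called above 0 for 1 and below 0 for 12 of the 48, with a median of -0.52, beside 23.7% and 21.2% of all genes. Without spinal cord proliferative replicate 1 it was called for 5 and 9, with a median of -0.24, beside 26.2% and 23.2%. The counts below 0 were thus near or under the shares of all genes.

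Of 13 recombination repair and S phase checkpoint genes, 4 fell in brain, 2 fell in spinal cord and 0 rose in either, counts near or under the shares of 28.5% and 22.6% that fell over all genes. Msh6, of mismatch repair, fell 1.93-fold in brain (adjusted p = 0.00117), and the checkpoint kinase Chek1 fell 1.84-fold in brain and 1.61-fold in spinal cord (adjusted p = 0.00399 and 0.0207), of which the spinal cord call was lost without proliferative replicate 1 (0.0799). Of 20 E2F, pocket protein and phase regulator genes, 3 rose and 7 fell in brain, and 0 rose and 5 fell in spinal cord (3 without proliferative replicate 1), again with falls near those shares in both tissues. Wee1, the kinase that restrains Cdk1, fell 3.11-fold in brain and Cdc25a, a phosphatase that activates Cdk2, 2.30-fold (adjusted p = 6.54e-05 and 0.00233). E2f2 rose 2.01-fold and the pocket protein gene Rbl2 1.78-fold in brain (adjusted p = 0.00959 and 0.000132). In spinal cord E2f5 fell 2.66-fold and the retinoblastoma gene Rb1 1.92-fold (adjusted p = 8.19e-08 and 0.000119).

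Within each class the promoter words went with small differences that are given as a description. The median change in brain was -0.76 for the 11 replication genes with an E2F word and -0.60 for the 12 without, with ranges that overlap. For mitosis genes it was 0.45 for the 18 with a CHR word and 0.10 for the 5 without, with overlapping ranges of -0.58 to 1.38 and -0.19 to 0.53. The shares in the other lists were 31.2% with an E2F word and 21.9% with a CHR word among 32 other replication promoters, and 2.4% and 54.8% among 42 other mitosis promoters.

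Markers of other cell types differed between the groups that are compared here. The summed linear signal of 8 astrocyte markers ranged over 27020 to 34250 in proliferative and 95060 to 101900 in differentiated brain cultures. In spinal cord cultures it was 21900 to 39730 before and 46110 to 55940 after differentiation, with 5 of the 8 markers called up, Gja1 and Aqp4 among them, and 3 called down, namely Gfap, Aldoc and S100b (-1.40, -0.98 and -1.40). In brain 7 were called up and 0 down. That of 8 fibroblast and mural markers was 823 to 1095 and 1222 to 1673 in brain and 23850 to 42220 and 84230 to 97700 in spinal cord, with Lum and Pdgfrb dim in both brain groups and none dim in spinal cord. For 8 microglia and macrophage markers it was 397 to 570 and 850 to 885 in brain and 2317 to 3732 and 1813 to 1883 in spinal cord, with Itgam and Cx3cr1 dim in all 4 groups. The 7 oligodendrocyte lineage markers on the array summed to 7433 to 8980 and 34520 to 40940 in brain and 39600 to 43120 and 35200 to 40800 in spinal cord, so proliferative brain cultures were low beside the other 3 groups. Behind the like sums in spinal cord, 5 of the 7 were called down with differentiation, among them Cspg4, Olig2, Olig1 and Sox10 (-3.44, -2.54, -2.26 and -1.26), and 1, Pdgfra, was called up (0.72). The 8 neuron markers summed to 7015 to 11560 and 7005 to 9133 in brain and 8533 to 10090 and 2114 to 2657 in spinal cord, where Rbfox3 was dim after differentiation. Behind the like sums in brain, 4 of the 8 were called down, namely Snap25, Rbfox3, Stmn2 and Tubb3 (-2.74, -1.97, -1.27 and -0.72). In brain 1 neuron marker, Map2, was called up (0.78), and in spinal cord 6 were called down and 0 up. Of 7 endothelial markers, 5 to 7 were dim in each group, and of the 6 Schwann cell markers on the array, which summed to 3346 to 8196 over all groups, at most 1 was. The part of other cell types in the replication and mitosis values was not tested.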

How the data were processed

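The labels describe 12 one-colour arrays of biotin-labelled cRNA made from total RNA with a 3' IVT kit. The authors deposited log2 signals per probe set; the submitters' processing notes name MAS5 and affy, without versions. The linear mean of each array, with 2% trimmed at each end, was 500 within rounding, the target scaling of MAS5. This shows that the arrays were scaled alike, and calls moved under another scaling as given below. Scanner files and detection calls were not used here, and no background can be given beyond each array's 40th percentile.

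After 57 controls were left out, 20834 of 31042 probe sets had at least 3 of 12 arrays above that percentile and were tested. A mean per group was fitted to all 12 arrays with limma 3.58.1 under R 4.3.3 (lmFit, eBayes with trend, 8 residual degrees of freedom), with Benjamini-Hochberg adjustment over all probe sets tested. The number of arrays limits the precision. On data simulated for the brain comparison over 20834 probe sets, 57 of 100 changes of 1 log2 unit and 88 of 100 of 2 units were recovered. These were the only changes put in, on probe sets of any brightness and with independent noise. In the real comparison 24.1% of all tested genes rose and 28.5% fell, and no member was dim. The recovered shares therefore do not give the power for the members. Class means, balances and list medians are descriptions without a test. Among the 12 genes with several tested probe sets, 0 of 60 gene and comparison pairs were called in opposite directions, and 16 were called by some probe sets only. Figures were drawn with matplotlib 3.10.9 in Python 3.11.15.

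Same-numbered arrays of different groups did not deviate together (correlations of -0.12 to 0.05, 0 of 18 above 0.1), so the numbers were not used to pair arrays. Alternatives were other scalings, a pseudocount of 64, other filters, no variance trend, averaged probe sets, the replicate number as a block, medians for means, and each array left out. All 53 members could be named, and of each other pathway list up to 2 called genes in each direction with the largest change. Members and lists were chosen with earlier results of these data known. Promoters came from RefSeq's GRCr8 table by gene.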

Additional observations from a re-analysis of the deposited data

Results flagged for a closer look

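The differentiation responses of 19 of the 53 member genes differed between tissues by the interaction test of the linear model, spinal cord minus brain on the log2 scale. They were 6 of 26 replication genes above 0 and 13 of 27 mitosis genes below 0. Of all tested genes 23.7% were called above 0 and 21.2% below. Of the 19 calls, 14 were kept under all alternatives, and those of Rfc4, Nuf2 and Ccnb1 were lost in 12, 7 and 4 of 20. Of the replication genes, the difference was 0.83 for Mcm2, 1.22 for Ccne1, 1.63 for Tyms, 0.96 for Prim1, 0.68 for Rfc4 and 1.59 for Hells. Of the mitosis genes, it was -1.16 for Mki67, -1.43 for Top2a, -1.16 for Ccnb1, -1.20 for Ccnb2, -1.41 for Birc5, -1.44 for Cenpf, -1.34 for Kif11, -1.34 for Nusap1, -0.94 for Nuf2, -1.24 for Prc1, -1.01 for Hmmr, -1.32 for Pbk and -0.92 for Cdca3.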

How the results depend on the processing

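Of 85 member calls in the 5 comparisons, 53 were kept under all 20 alternatives and 32 were lost under at least 1, and 0 turned direction. Centring arrays on their medians shifted the median of all genes by -0.15 in brain differentiation, -0.21 between proliferative tissues and 0.23 in the difference of responses. Of the calls over all genes, and not of all genes, the part that was higher moved from 45.8% to 34.4%, from 48.2% to 30.1% and from 52.7% to 66.9%. Under median centring 4 mitosis genes rose in brain, where 2042 of the 11218 tested genes did. In proliferative spinal cord cultures 5 replication genes were lower and 13 mitosis genes higher, beside 3956 and 1705 of all tested genes. The difference of responses was called above 0 for 11 replication genes, beside 3544 of all tested genes. Averaging all probe sets gave 1 replication gene higher in brain differentiation and 1 between proliferative tissues. The single replication gene lower between proliferative tissues became 0 without the filter, without the variance trend and with the replicate block, and this was the only count that the replicate block moved by over 1.5 times. Medians in place of means gave a balance change of -0.70 in brain and 0.90 for the difference of responses, and a mitosis difference of -0.40. The cause of these moves was not tested.

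With all 12 arrays, 24.1% of all tested genes rose and 28.5% fell in brain, and 20.9% and 22.6% in spinal cord. Between proliferative tissues 21.2% were higher and 22.8% lower, between differentiated tissues 22.3% and 22.4%, and in the difference of responses 23.7% and 21.2%. For most leave-outs no share over all genes was taken, so their counts have none beside them. With each array left out in turn, in brain differentiation 0 to 1 replication genes rose and 12 to 18 fell, and 2 to 12 mitosis genes rose and 0 to 1 fell. In spinal cord 2 to 5 replication genes rose and 2 to 8 fell (median -0.36 to 0.11), and 5 to 12 mitosis genes fell. Between proliferative tissues 0 to 2 replication genes were higher and 0 to 14 lower (median -0.47 to 0.0855), and 15 to 24 mitosis genes higher. Between differentiated tissues 3 to 13 replication genes were higher, 1 to 5 mitosis genes higher and 0 to 1 lower. The difference of responses was called above 0 for 4 to 16 replication genes (median 0.19 to 0.69) and below 0 for 11 to 16 mitosis genes. The replication mean changed by -0.39 to 0.12 in spinal cord, differed by -0.40 to 0.12 between proliferative tissues, and its difference of responses was 0.28 to 0.79. The mitosis mean changed by 0.15 to 0.49 in brain and by -0.61 to -0.16 in spinal cord, differed by 0.57 to 1.02 between proliferative tissues, and its difference of responses was -0.93 to -0.48. The balance changed by -1.23 to -0.81 in brain, differed by -1.16 to -0.73 between proliferative tissues, and its difference of responses was 1.04 to 1.46. Spinal cord proliferative replicate 1 set the highest count of replication genes lower between proliferative tissues, higher between differentiated tissues and higher in the difference of responses. Without that array 25.4%, 24.9% and 26.2% of all tested genes were called in these directions.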
